A study of Saccharomyces cerevisiae with 6 samples.

Results

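The genes described here are the DNA damage checkpoint kinases and sensors of budding yeast, taken as a list of 10 symbols: MEC1, TEL1, RAD53, CHK1, RAD9, RAD17, RAD24, DDC1, MEC3 and MRC1. Each symbol was matched to the array's probe annotation, and the probe set with the highest mean would have been kept where a gene had several. All 10 genes were found among 5449 Saccharomyces cerevisiae genes on the array, each with 1 probe set, and all 10 were among the 5402 genes tested. Transcript levels were measured on Affymetrix arrays in 3 wild-type samples and 3 samples of an rph1 deletion strain. Both strains are in the W303 background, and both were harvested from log-phase growth at 30 °C in rich medium (YPD), with no DNA-damaging treatment in either group. They are biological samples per the series' design text, and neither the construction of the deletion nor the number of clones behind it is stated.

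The checkpoint works as a relay. Damaged or stalled DNA is recognised by the kinases Mec1 and Tel1, and by a ring-shaped clamp of Ddc1, Mec3 and Rad17 that a Rad24-containing loader places on DNA. The adaptors Rad9 and Mrc1 then bring the effector kinases Rad53 and Chk1 to be activated, which slows the cell cycle and induces repair genes. Rph1, a zinc-finger repressor with a JmjC histone demethylase domain, is known as a target of this relay: Rad53-dependent phosphorylation after damage lifts its repression of the photolyase gene PHR1. The relay is known to act mainly through phosphorylation, which an array of transcripts does not measure. The comparison therefore concerns the other direction, whether the transcripts of the relay differ when Rph1 is missing from unstressed cells.

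In log-phase cells none of the 10 checkpoint transcripts passed the test between the deletion and wild type, and all differences were small. The log2 differences, deletion minus wild type, ran from -0.07 for MRC1 to 0.19 for RAD53, with 5 genes above 0 and 5 below. Their median was 0.019, beside 0.0012 over all tested genes. By limma with Benjamini-Hochberg adjustment over all genes, 0 of the 10 passed the threshold of 0.05 (adjusted p = 1.00 for each), where 0.037% of tested genes passed, 2 genes in all. At an unadjusted p under 0.05 the count was also 0 of 10, against 5.33% of tested genes. In 0 of the 10 did every deletion array lie on one side of every wild-type array, against 10.6% of tested genes. A fit with the replicate block called 6 genes (0.111%) in place of 2, and again 0 of the 10.

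The deleted gene itself checked the labels. RPH1 (YER169W) read 305, 362 and 385 in wild type and 4.52, 8.18 and 8.99 in the deletion arrays, in replicate order, so the groups stand far apart. It differed by -5.66 on the log2 scale (SE 0.27, limma adjusted p = 0.00196), and since 1 of the 3 deletion arrays was above background the level was at least 35.2-fold lower. Signals throughout are MAS5 values on a linear scale, MAS5 being the Affymetrix summary of a probe set, and background is the 95th percentile of the fission yeast probe sets that the same array carries. All 10 checkpoint genes were above background on all 6 arrays. Of the 10 fission yeast counterparts of these genes, 8 had a listed probe set, and those read between 0.188 and 12.03, while the 10 checkpoint genes of budding yeast read between 114 and 821. The summed signal of 4 alpha-cell transcripts was 13179 to 15510.4 in wild type and 13732 to 17631 in the deletion, and that of 6 a-cell transcripts was 316 to 392 and 264 to 365. For 4 meiotic transcripts it was 308 to 380.3 and 347 to 371. By mean log2 signal 3 of the 4 alpha-cell, 1 of the 6 a-cell and 3 of the 4 meiotic transcripts were higher in the deletion. Of 8 transcripts that mark stationary or starved cells 0 passed the test, with summed signals of 3875 to 5922 in wild type and 3897 to 6219 in the deletion. By mean log2 signal 5 of those 8 were higher in the deletion and the rest were lower. SPG4 differed most among the 8 (log2 difference 1.29, SE 0.32, limma adjusted p = 0.435). It read 49.4 to 106 on the wild-type arrays and 127 to 210.4 on the deletion arrays. With array weights SPG4 passed (1.36, limma adjusted p = 0.0278), as did the a-cell receptor gene STE2 (-0.33, limma adjusted p = 0.0225). Without weights STE2 was at -0.28 (limma adjusted p = 0.480). It read 60.4 to 68.1 on the wild-type arrays and 52.6 to 53.9 on the deletion arrays. All its deletion arrays thus lay below wild type, as they did for 3.04% of tested genes. The weighted fit called 202 genes over the array, against 2 in the main fit, and its weight estimate stopped before convergence. The part of these markers in the results was not tested.

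**Figure D1:**
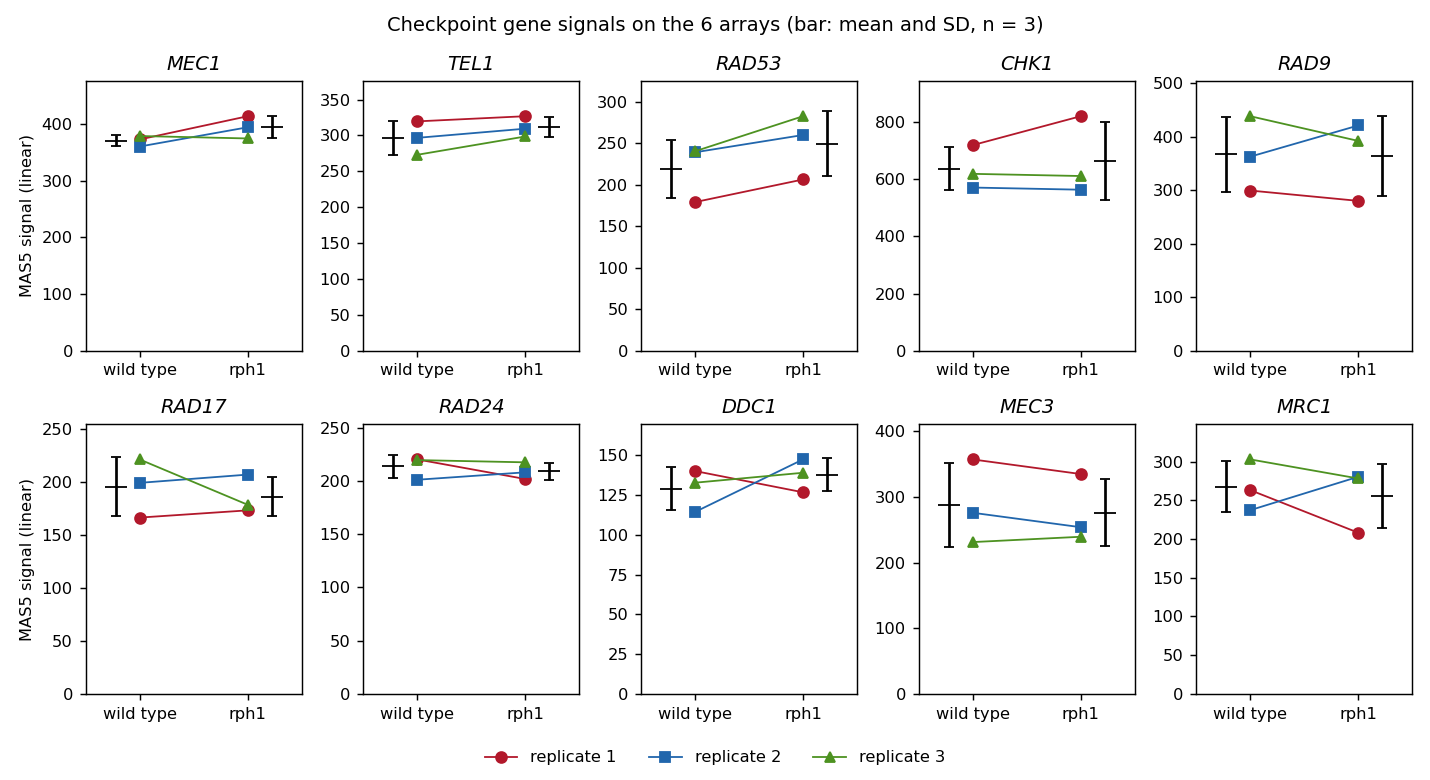
MAS5 signal (linear axis from 0) of the 10 checkpoint genes in the 3 wild-type and 3 deletion arrays, with a line joining arrays of the same replicate number and a black bar for the mean and SD of each group (n = 3). The 2 groups overlap for every gene, and the replicate 1 arrays stand apart for RAD53, CHK1, RAD9 and MEC3.

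MEC1 (YBR136W) encodes the main sensor kinase, the yeast counterpart of ATR, which is recruited to single-stranded DNA. It read 373, 360.3 and 379 in wild type and 414, 394 and 375 in the deletion, in replicate order. The lowest deletion array lay inside the wild-type range, and the other two lay above it. The log2 difference was 0.09 (SE 0.07, 95% confidence interval -0.09 to 0.27), with the deletion higher in 2 of 3 same-numbered pairs. This was the smallest unadjusted p of the 10 genes (limma p = 0.272, exact permutation p = 0.2, where 0.1 is the smallest that 3 arrays against 3 allow). MEC1 also had the smallest spread of the 10 genes when pooled over both groups, with coefficients of variation of 2.56% (wild type) and 4.98% (deletion).

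TEL1 (YBL088C) encodes the related kinase, the counterpart of ATM, which acts at double-strand ends and in telomere length control. It read 319.6, 297 and 273 in wild type and 327, 309 and 299 in the deletion. The deletion was higher in all 3 pairs, by 0.03, 0.06 and 0.13 on the log2 scale, but the groups overlapped. The difference was 0.07 (SE 0.09, 95% confidence interval -0.14 to 0.28). Both sensor kinases thus had intervals that exclude a change of 1.5-fold in either direction.

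RAD53 (YPL153C) encodes the effector kinase related to human CHK2 that is known to act on Rph1. It read 179, 239 and 240.5 in wild type and 206, 260.1 and 283 in the deletion. The deletion array of each pair was the higher, by 0.20, 0.12 and 0.23 on the log2 scale, yet the deletion array of replicate 1 lay below the wild-type arrays of replicates 2 and 3. The log2 difference was 0.19 (SE 0.17), the largest of the 10 genes, and its 95% confidence interval of -0.22 to 0.59 was the only one of the 10 that reached 1.5-fold. With the replicate block the SE fell to 0.06 and the interval ran from 0.04 to 0.34, with an unadjusted p of 0.0238 by limma and an adjusted p of 0.292. RAD53 was then the 1 of 10 genes with an unadjusted p under 0.05, a level reached by 13% of all tested genes in that fit. With a term for replicate 1 against replicates 2 and 3 it was again 1 of 10 (limma unadjusted p = 0.0148, adjusted p = 0.205), against 14.6% of tested genes, and 0 of 10 passed after adjustment against 0.629%. Without wild type replicate 1 the difference was 0.05, without deletion replicate 3 it was 0.09, and without deletion replicate 1 it was 0.32.

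Same-signed pairs were no more common among the 10 genes than in the array at large. TEL1 and RAD53 were the 2 of 10 that were higher in the deletion in all 3 pairs, against 19.9% of tested genes. No gene of the 10 was lower in all 3, against 14.7%.

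CHK1 (YBR274W) encodes the other effector kinase, which holds back anaphase by protecting the securin Pds1. It read 719.8, 571 and 619 in wild type and 821, 564 and 612 in the deletion. Replicate 1 was the brightest array of each group, and the deletion was higher in that pair by 0.19 and lower in the other two by 0.02 each on the log2 scale. The difference was 0.05 (SE 0.16, 95% confidence interval -0.35 to 0.45).

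**Figure D2:**
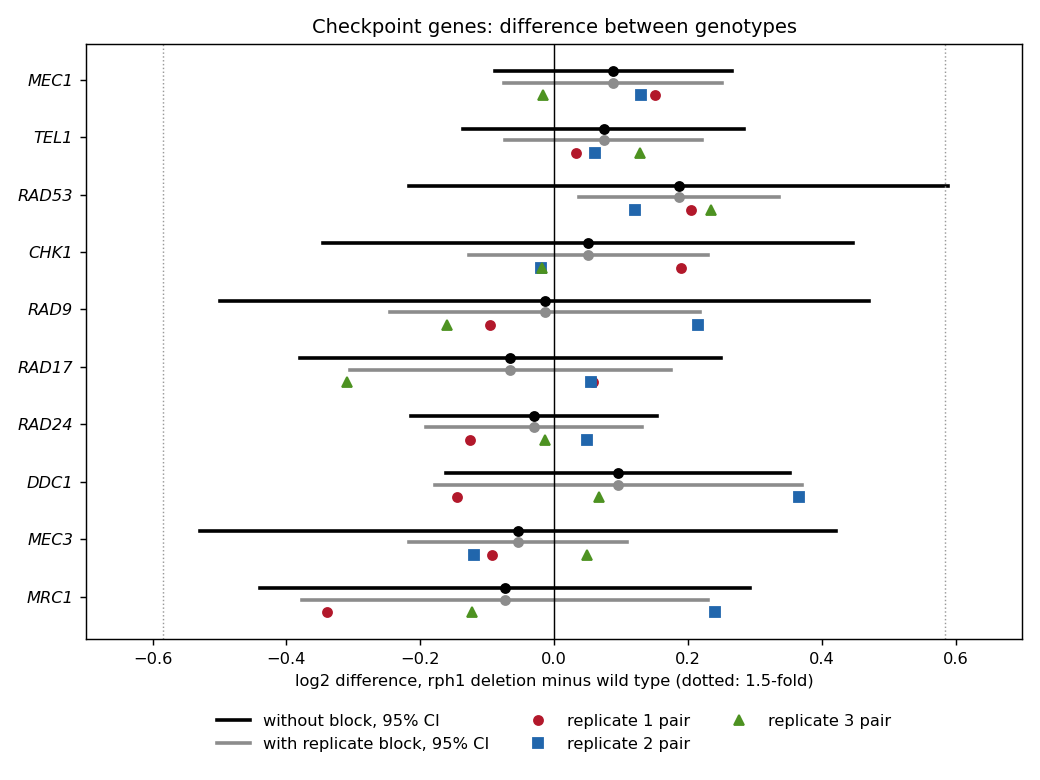
Log2 difference (deletion minus wild type) of the 10 checkpoint genes, with 95% confidence intervals from limma without the replicate block (black) and with it (grey), and the difference of each same-numbered pair (coloured symbols). All 10 black intervals include 0, and the RAD53 interval is the only one to reach the dotted line at 1.5-fold.

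The adaptors varied more than the sensor kinases. RAD9 (YDR217C), whose product binds modified chromatin at lesions and brings Rad53 and Chk1 to Mec1, read 299, 363 and 438 in wild type and 280.0, 421 and 392 in the deletion. Replicate 1 was the lowest array of each group, and the pairs went both ways. The log2 difference was -0.01 (SE 0.20), with a 95% confidence interval of -0.50 to 0.47. MRC1 (YCL061C), whose product travels with the replication fork and passes the signal of stalled forks to Rad53, read 263, 237 and 303 in wild type and 208, 280.5 and 278 in the deletion. Its pairs differed by -0.34, 0.24 and -0.12 on the log2 scale, a spread wider than the overall difference of -0.07 (SE 0.15).

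The 3 clamp subunits showed no common direction. DDC1 (YPL194W), whose product also activates Mec1 directly, read 140.0, 114 and 133 in wild type and 127, 147 and 139 in the deletion, and differed by 0.10 on the log2 scale (SE 0.11). Its pairs went from -0.14 in replicate 1 to 0.37 in replicate 2. MEC3 (YLR288C) read 357, 276 and 231 in wild type and 335, 254 and 239 in the deletion, and differed by -0.05 on the log2 scale (SE 0.20). Replicate 1 was the brightest array of both groups, and the coefficient of variation of MEC3 in wild type, 22.2%, was the highest of the 10 genes. RAD17 (YOR368W) read 166, 199 and 221 in wild type and 173, 207 and 179 in the deletion, with replicate 1 the lowest of both groups. Its log2 difference was -0.07 (SE 0.13), and 2 of the 3 pairs were higher in the deletion.

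RAD24 (YER173W), which encodes the clamp loader subunit, lies on chromosome V only 4 genes away from RPH1. It read 220.2, 201 and 219.6 in wild type and 202, 208 and 217 in the deletion, so the deletion arrays lay within the wild-type range. The log2 difference was -0.03 (SE 0.08, 95% confidence interval -0.21 to 0.15), the narrowest bound on a change among the 10 genes. Of the 15 neighbours within 8 genes on either side with a tested probe set, ADK2, the mitochondrial adenylate kinase gene next to RPH1, had the largest difference, 0.42 (SE 0.10, limma adjusted p = 0.435). With array weights it passed, at 0.47 (limma adjusted p = 0.0262), in the fit that called 202 genes and whose weight estimate stopped before convergence. The other neighbours lay between -0.08 and 0.10 in the main fit. The gene order is that of the RefSeq assembly R64, and the deposited values name no genome build, so no coordinates are given.

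**Figure D3:**
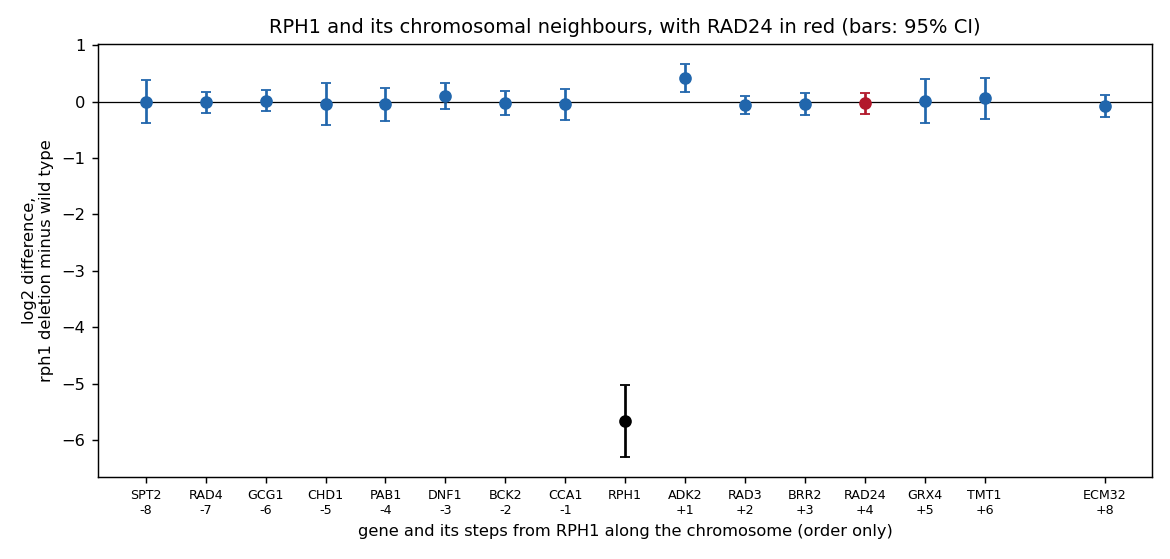
Log2 difference (deletion minus wild type) with 95% confidence intervals for RPH1 and the tested genes within 8 genes on either side, in chromosomal order. RPH1 lies at -5.66, ADK2 at 0.42, and RAD24 (red) at -0.03 with an interval that includes 0.

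The precision of these comparisons differed from gene to gene. For 9 of the 10 genes the 95% confidence interval lay wholly within 1.5-fold of no change, as it did for 81.8% of tested genes, and all 10 lay within 1 on the log2 scale. Standard errors ran from 0.07 for MEC1 to 0.20 for RAD9, around the 0.11 that was the median of all tested genes. By spread between arrays of a group, MEC1 and RAD24 stood at the percentiles 8.79 and 12.5 of tested genes, and RAD9 and MEC3 at 86.0 and 85.5.

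Much of the variation in these transcripts followed the replicate number and not the genotype. Dividing each gene's sum of squares over the 6 arrays (log2 signals) gave the replicate number a median share of 67.9% over the 10 genes and the genotype 6.20%, close to the 65.8% and 7.95% of all tested genes. The replicate share exceeded the genotype share in 8 of the 10, against 80.2% of tested genes, and it was highest for MEC3 (96.2%), CHK1 (91.8%) and RAD9 (88.3%). MEC1 and DDC1 were the exceptions. For MEC1 the genotype held 47.1% against 19.2% for the replicate number, and for DDC1 the remainder, which neither explains, held 78.5%. The replicate number has more levels than the genotype, so its share would tend to be the larger even without a replicate effect.

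The replicate 1 arrays, which the labels give sample codes of another form, stood apart for several of these genes. RAD53 was lower in replicate 1 than in the mean of replicates 2 and 3 the log2 difference being -0.42 among wild-type arrays and -0.39 among deletion arrays. RAD9 was also lower there, at -0.41 and -0.54. MEC3 was higher there, at 0.50 and 0.44, and CHK1 was higher at 0.27 and 0.48. In all, 4 of the 10 genes were higher in replicate 1 in both genotypes and 4 were lower in both. Across tested genes 78.7% had the same sign in both genotypes. For RAD53, RAD9, MEC3 and CHK1 these shifts exceed the difference between genotypes in both strains.

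**Figure D4:**
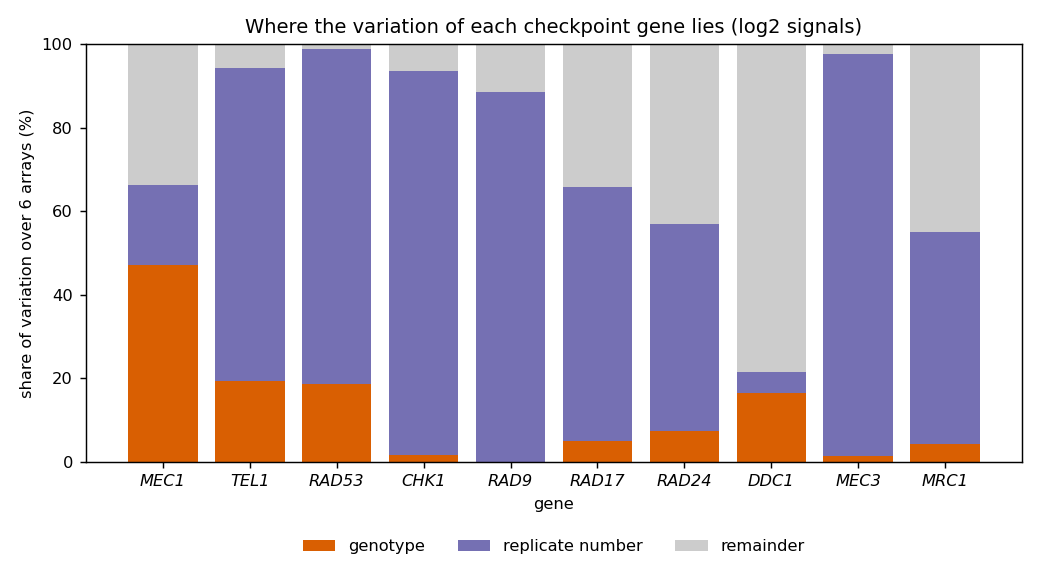
Share (%) of each checkpoint gene's sum of squares over the 6 arrays (log2 signals) that lies between genotypes, between replicate numbers and in the remainder. The replicate number takes over 80% for RAD53, CHK1, RAD9 and MEC3, and the genotype is largest for MEC1 at 47.1%.

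The genes whose signals tracked these transcripts most closely over the 6 arrays were found by Pearson correlation of log2 signals, as a description. The arrays fall mainly into replicate 1 and the rest, but for MEC1 the genotype held the larger share of variation (47.1% against 19.2%). For MEC1 the closest were YGL258W-A (r = 0.99), YOR292C (0.97) and the sorting nexin gene SNX3 (0.97), and 51 tested genes outside the list exceeded 0.9. Those 3 differed between genotypes by 0.51, 0.29 and 0.19 on the log2 scale. For RAD53 the closest were YEL076C, the proteasome activator gene BLM10 and HFA1, which encodes mitochondrial acetyl-CoA carboxylase (r = 0.99 for each). They differed by 0.18, 0.17 and 0.10, and 325 genes exceeded 0.9 with RAD53. None of these 6 passed the genotype test (limma adjusted p = 0.758 to 1.00).

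No gene of the wider pathway passed either. Further pathway genes tested numbered 54, each counted once over 5 lists arranged by role. Of these, 26 were higher in the deletion, against 50.4% of tested genes, 28 were lower and 0 passed the limma test. Their median log2 difference was -0.0043. An unadjusted p under 0.05 was found for 2 of them, SAE2 and DIN7, against the 5.33% of all tested genes.

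Among 13 sensor partners and loader subunits (Ddc2, encoded by LCD1, the small replication factor C subunits, replication protein A, Dpb11 and the Mre11 complex with Sae2), 5 were higher, 8 were lower and 0 passed, with a median of -0.025. SAE2, whose product starts the trimming of double-strand ends, read 63.8, 72.9 and 75.9 in wild type and 83.0, 78.1 and 88.6 in the deletion. The groups did not overlap, and the deletion was higher by 0.23 on the log2 scale (SE 0.10, limma adjusted p = 0.932). XRS2, the Mre11 complex subunit that recruits Tel1, read 338, 353 and 344 in wild type and 325, 337 and 276 in the deletion. All its deletion arrays lay below wild type, by -0.15 (SE 0.10, limma adjusted p = 1.00). SAE2 was thus the 1 of 13 with separate groups and a higher deletion, against 7.55% of tested genes, and XRS2 the 1 of 13 with a lower one, against 3.04%.

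Among 9 fork mediators and alternative clamp loader subunits, 4 were higher, 5 were lower and 0 passed, with a median of -0.0080. CSM3, which works with Tof1 and Mrc1 at the fork, read 222, 215 and 201 in wild type and 226, 239.8 and 227 in the deletion. The groups did not overlap, and the log2 difference was 0.12 (SE 0.08). DOT1, the histone methyltransferase whose mark Rad9 binds, differed by 0.10 (SE 0.10).

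Among 10 downstream effectors and inhibitors, 5 were higher and 5 lower, and the median was -0.00038. CDC5, the polo kinase that acts in checkpoint recovery, read 865, 1027 and 1033 in wild type and 1053, 1053 and 1127 in the deletion, with separate groups that differed by 0.15 on the log2 scale (SE 0.10). DUN1, the Rad53-activated kinase that controls ribonucleotide reductase, differed by 0.11 (SE 0.09) with overlapping groups. Of 11 genes for checkpoint phosphatases, the Tel2 complex that stabilises Mec1 and Tel1, and the 14-3-3 proteins, 4 were higher and 7 lower, with a median of -0.023. PSY2 had the largest difference of this list, 0.22 on the log2 scale (SE 0.24), with overlapping groups. With the replicate block its unadjusted p was 0.0458 by limma and its adjusted p 0.369, where 13% of tested genes were under 0.05 unadjusted. The Tel2 complex genes TTI1 and TTI2 had the smallest unadjusted p of these, at 0.09 (SE 0.09) and 0.09 (SE 0.10).

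Transcripts that checkpoint signalling is known to induce were set beside the relay. PHR1 among them is also a known target of Rph1 itself. Of 13 tested, 9 were higher in the deletion, against 50.4% of tested genes, 4 were lower and 0 passed, with a median of 0.025. DIN7, a mitochondrial nuclease gene induced by damage, read 135, 147 and 142 in wild type and 162, 156 and 175 in the deletion. The groups did not overlap, and they differed by 0.22 on the log2 scale (SE 0.08, limma adjusted p = 0.755). PHR1 read 193, 168 and 201 in wild type and 217, 214 and 202 in the deletion. The lowest deletion array lay just above the highest wild-type array, and the difference was 0.18 (SE 0.09, limma adjusted p = 1.00). DDR48 had the largest difference of the list, 0.24 (SE 0.29), with overlapping groups. Its deletion array was the higher in each pair, by 0.29, 0.23 and 0.19, a direction shared by 19.9% of tested genes. With the replicate block the DDR48 interval was 0.09 to 0.38 (limma unadjusted p = 0.00888, adjusted p = 0.193). DIN7 and PHR1 were the 2 of 13 with separate groups and a higher deletion, against 7.55% of tested genes, as was CSM3 for 1 of the 9 fork genes and CDC5 for 1 of the 10 downstream genes.

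Some checkpoint genes are known to be transcribed at particular cell cycle stages, so cycle transcripts were set beside them. Of 18 G1/S transcripts 8 were higher, 10 lower and 0 passed, with a median of -0.011. The G1 cyclin gene PCL1 read 421, 315 and 319 in wild type and 338, 261 and 270.1 in the deletion, with overlapping groups that differed by -0.28 on the log2 scale (SE 0.16). The deletion was the lower in each pair, by -0.32, -0.27 and -0.24, a direction shared by 14.7% of tested genes. With the replicate block the interval was -0.42 to -0.13 (limma unadjusted p = 0.00426, adjusted p = 0.149). In that fit 13% of tested genes had an unadjusted p under 0.05, SAE2, DIN7, DDR48 and PSY2 among them. With the term for replicate 1, PCL1 had an unadjusted p of 0.00148 by limma and an adjusted p of 0.0686. In that second fit 14.6% of tested genes were under 0.05 before adjustment and 0.629% after it. The S-phase cyclin gene CLB6 differed by 0.15 (SE 0.10). Of 9 G2/M transcripts 8 were higher in the deletion, against 50.4% of tested genes, 1 was lower and 0 passed. The median of this list was 0.088, the largest of the 7 lists. CDC5, which is also in this list, and the mitotic cyclin gene CLB1 had the smallest unadjusted p of the list. The log2 difference of CLB1 was 0.14 (SE 0.09). The G2/M median was 0.10 in the replicate 1 pair, 0.04 in the second pair and -0.0084 in the third, and its part in the values of the checkpoint genes was not tested.

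**Figure D5:**
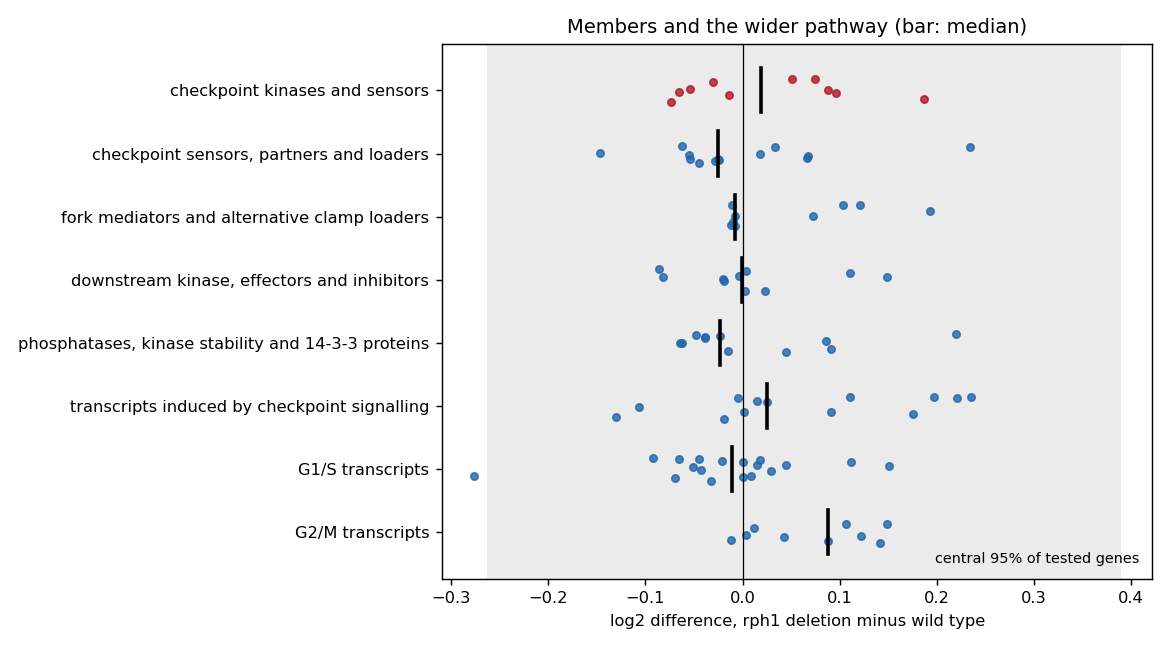
Log2 difference (deletion minus wild type) of every tested gene in the checkpoint list (red) and in 7 lists of pathway and cell cycle genes (blue), with the median of each as a bar. The grey band spans the central 95% of all tested genes, from -0.26 to 0.39, and PCL1 at -0.28 is the only point outside it.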

How the data were processed

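The authors deposited linear signal intensity values for 10928 probe sets, computed with MAS5 according to the submitters' processing notes, of which the version and the scaling target are unstated. The 2% trimmed mean was 500.2 on every array, so the intensity values were used as deposited, after taking log2. Gene identifiers in the platform annotation were matched to RefSeq (R64), which gave 5498 probe sets for 5449 S. cerevisiae genes and 1746 probe sets for S. pombe. Genes were tested if their mean log2 signal exceeded 3.06, the 95th percentile of the S. pombe means, which kept 5402.

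Genotypes were compared by a 2-sided test in limma 3.58.1 (R 4.3.3, lmFit then eBayes, with no other term), and p-values were adjusted by Benjamini-Hochberg over all tested genes. Alternatives were the replicate block, a term for replicate 1, subsets of arrays, other scalings, offsets, filters and probe set rules, an intensity trend and array weights. Figures were drawn with matplotlib 3.10.9. Deviations from the group means correlated at 0.768, 0.454 and 0.415 between arrays numbered 1, 2 and 3, all above 0.1, so a fit with the replicate number as a block was made beside the unpaired main one. The 3 values rest mainly on replicate 1, since wild type 3 with deletion 2 (0.535) and wild type 2 with deletion 3 (0.471) gave more than the pairs numbered 2 and 3. The number of arrays limits the precision, and a p-value measures only the spread between these samples.

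The members and lists were chosen with earlier results of these data known. Genes named beside the members are RPH1, from each list the 2 with the smallest unadjusted p, and the 3 most correlated with MEC1 and RAD53. ECM23 is named as the other gene called in the main fit. SPG4, STE2, ADK2, DDR48 and PSY2 were named after their values were seen.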

Additional observations from a re-analysis of the deposited data

How the results depend on the processing

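Under the 17 alternatives that gave a test, none of the 10 checkpoint genes passed the limma test. None of the other genes of the 7 lists passed either. The lowest adjusted p of the checkpoint genes was 0.0797, for DDC1 with array weights, and ran up to 1.00 over the alternatives. Over the 7 lists the lowest adjusted p was 0.0686, for PCL1 with the term for replicate 1. The replicate block changed no call among the checkpoint genes or lists. RPH1 kept its call in these 17, at -5.84 to -3.28 (-6.08, untested, in the replicate 1 pair), and at -5.84 to -5.35 with a single array removed. The number of genes called over the array was 2, and became 6 with the replicate block, 34 with the term for replicate 1, 202 with array weights (an estimate that stopped before convergence), and 1 with quantile normalization, an offset of 32, the stricter filter or an intensity trend. Leaving out single arrays gave 1 to 2. ECM23, called beside RPH1 in the main fit, kept its call there only without deletion replicate 1. The median over the checkpoint genes lay between -0.030 and 0.074, and was below 0 with quantile normalization (-0.013), with median centring (-0.017), without wild type replicate 2 (-0.019) and in the replicate 1 pair (-0.030). MEC1, TEL1 and RAD53 stayed above 0 in all 18 alternatives, though single arrays moved them. MEC1 ran from 0.053 (without deletion 1) to 0.12 (without deletion 3), TEL1 from 0.016 (without wild type 3) to 0.13 (without wild type 1) and RAD53 from 0.046 (without wild type 1) to 0.32 (without deletion 1). The sign turned for the 7 others in some settings. CHK1 became -0.019 in replicates 2 and 3 alone, -0.024 without wild type 2 and -0.11 without deletion 1 (-0.11 to 0.16 over the single arrays left out). DDC1 became -0.14 in the replicate 1 pair, was 0.29 with array weights, and ran from 0.011 (without wild type 2) to 0.16 (without wild type 1). MEC3 became 0.11 without wild type 1 and 0.041 without deletion 3 (-0.20 to 0.11 over such omissions). MRC1 became 0.059 in replicates 2 and 3, 0.17 with array weights, 0.019 without wild type 3 and 0.068 without deletion 1 (-0.16 to 0.068 over such omissions). RAD17 became 0.028 without wild type 3 (-0.18 to 0.028 over such omissions) and 0.058 in the replicate 1 pair. RAD24 became 0.018 in replicates 2 and 3 and 0.049 with array weights, and ran from -0.073 to -0.0048 over such omissions. RAD9 became 0.027 in replicates 2 and 3, 0.13 with array weights, 0.12 without wild type 3 and 0.16 without deletion 1 (-0.15 to 0.16 over such omissions). None of these values passed, and the cause of the turns was not tested.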
